A study of Mus musculus with 2 samples.

Results

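The genes described here are 47 mouse nuclear receptor genes, taken by name from a fixed list of the family and located by RefSeq records of the assembly GRCm38.p6 (mm10). They are 47 of 21883 coding genes on chromosomes 1 to 19, X and Y. All 47 were found and scored. Peaks came from chromatin immunoprecipitation and sequencing in BV2, an immortalised line of mouse microglia, with 1 library precipitated by an antibody against Nr4a2 and 1 library of input DNA that was not precipitated. The labels name no genotype and no treatment, and the names of both libraries in the file header carry the tag H2O2. The authors' list holds 7680 peaks of the ChIP over the input, of which 7652 lie on these chromosomes. With 1 library of each kind there was no replicate, so no value below carries a measure of variation between cultures, and intervals cover counting error only. A peak list holds no expression, so the cell line could not be checked against its markers. Of 10 microglial marker loci, 3 (Csf1r, Cx3cr1 and Ptprc) held a summit, against 11.6% of all coding genes. Within 1000 bp of a gene end 0 had one, against 2.36%. Gene length and local peak density were not taken into account for these 10 loci.

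Nuclear receptors are transcription factors with a zinc finger domain that binds DNA and a domain that, in many of them, binds a small lipophilic ligand such as a steroid, a retinoid, thyroid hormone or an oxysterol. Most recognise the core word AGGTCA, alone or repeated. Nr4a2 (Nurr1) is an orphan receptor of the NR4A subfamily that binds as a monomer to the word AAAGGTCA, known as NBRE, and can also pair with a retinoid X receptor. In microglia and macrophages, members of the family are known for restraining inflammatory genes and for handling lipids. Many receptor genes are themselves known targets of other receptors.

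At an end of a receptor gene there was 1 peak, and inside 12 of the 47 genes there were others. These were 2.13% and 25.5% of the genes, against 2.36% and 11.6% of coding genes. Coding genes are shorter, with a median of 17.2 kb against 47.1 kb. The gene with a peak at an end was Nr6a1, which encodes germ cell nuclear factor, an orphan repressor active in early development. Its summit lay 112 bp before the transcription start, inside the 300-base promoter window that RefSeq records give (250 bases before a start and 50 after). The peak spanned chr2:38926298-38926665 and was 368 bp wide, with 9 tags and 3.59-fold enrichment over the local background, in the authors' values. The authors' −log10 q was 1.08, so q was above 0.05. The other promoter near a summit was the downstream of the 2 starts of Rxra, which encodes retinoid X receptor alpha, a dimer partner of Nr4a2. That summit lay 907 bp after the start. Of the 43 receptor genes in the RefSeq promoter table, these 2 had a summit within 1000 bp of a start, against 1.74% of coding genes in that table. Nr6a1 was the only one of the 43 with a summit inside a window, against 0.383% of coding genes. Hnf4g, Nr3c1, Nr5a1 and Thra had no entry.

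The bases before these starts are shown from RefSeq on GRCm38.p6, 5′ to 3′ on the strand of the gene. For Nr6a1 the 250 bases lie at chr2:38926462-38926711 on the minus strand, and capitals mark the 21 bases centred on the summit. For Rxra they lie at chr2:27709042-27709291 on the plus strand. For Rxrg, which encodes retinoid X receptor gamma, they lie at chr1:167618015-167618264 on the plus strand. In the last 2, capitals mark AAAGGTCA, and they are shown because they were the only receptor windows that held this word.
Nr6a1: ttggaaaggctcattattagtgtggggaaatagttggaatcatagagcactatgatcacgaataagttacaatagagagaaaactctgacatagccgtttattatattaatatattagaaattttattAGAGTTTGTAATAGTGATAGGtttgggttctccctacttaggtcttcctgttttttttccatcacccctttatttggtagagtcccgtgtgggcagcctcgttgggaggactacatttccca
Rxra: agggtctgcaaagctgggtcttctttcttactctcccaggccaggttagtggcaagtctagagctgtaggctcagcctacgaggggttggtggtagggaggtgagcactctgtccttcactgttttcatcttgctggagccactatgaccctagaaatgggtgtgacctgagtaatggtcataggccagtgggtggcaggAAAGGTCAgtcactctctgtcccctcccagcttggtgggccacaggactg
Rxrg: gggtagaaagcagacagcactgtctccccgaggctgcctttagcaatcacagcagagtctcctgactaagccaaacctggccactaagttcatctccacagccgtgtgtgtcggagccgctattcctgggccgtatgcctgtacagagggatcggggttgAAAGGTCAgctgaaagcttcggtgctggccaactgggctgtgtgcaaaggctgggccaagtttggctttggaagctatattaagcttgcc

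The Nr6a1 window under the summit held neither AAAGGTCA nor the core word AGGTCA, and its 250 bases were 37.6% G and C, against 55.2% in each of the other sequences. In the Rxra window AAAGGTCA lay at positions -50 to -43 from the start, and the summit was beyond the window on the other side of the start. In the Rxrg window the word lay at positions -90 to -83, and the nearest summit to that gene was 186 kb away. Both strands were searched in the 64 windows of the 43 genes. AAAGGTCA was in 2 windows (3.12%), against 1.30% of the 21262 windows of coding genes. AGGTCA, which is also the end of AAAGGTCA, was in 12 windows (18.8%), against 14.7%. A match is a word in the reference sequence and not a measured site.

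None of the NR4A genes had a peak inside, at an end, or nearer to it than to any other coding gene. Of all coding genes, 11.6%, 2.36% and 21.1% had these. At the summit density of the 5 Mb around each gene, the 3 genes would hold 0.193 summits. Nr4a1, Nr4a2 and Nr4a3 encode the orphan receptors Nur77, Nurr1 and Nor1, which are induced by many stimuli. The nearest peak to Nr4a1 (chr15:101253902-101274795) was 34.1 kb away with 8 tags and 2.65-fold enrichment, and its summit was 4.38 kb from the gene Grasp. For Nr4a2 (chr2:57106830-57124003), the gene of the precipitated factor, the nearest peak was 384 kb away with 11 tags and 4.31-fold enrichment, and the closest coding gene to it was Gpd2 at 136.9 kb. For Nr4a3 (chr4:48045078-48086447) it was 328 kb away with 9 tags and 3.59-fold enrichment, closest to Sec61b at 234 kb. The surroundings of these genes differed. In the 5 Mb around each gene, with the gene itself left out, Nr4a1 had 8.03 summits per Mb, Nr4a2 1.003 and Nr4a3 0.202, while the median coding gene had 2.88.

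Retinoid X receptors are the shared dimer partners of many receptors. Of their 3 genes, 1 held a summit, against 11.6% of coding genes. At the summit density of the 5 Mb around each gene, they would hold 0.876 in all. The peak in Rxra, at chr2:27710156-27710349, had 11 tags, 4.27-fold enrichment and a −log10 q of 1.76, so q was under 0.05. A further peak lay outside Rxra but closer to it than to any other coding gene, 40.7 kb from its end, with 10 tags and 3.40-fold enrichment. Rxrb, with 5.41 summits per Mb around it, was 50.3 kb from its nearest summit, and Rxrg, with 6.66 per Mb, was 186 kb away. All of these genes thus lay in regions denser in peaks than that of the median coding gene.

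**Figure D1:**
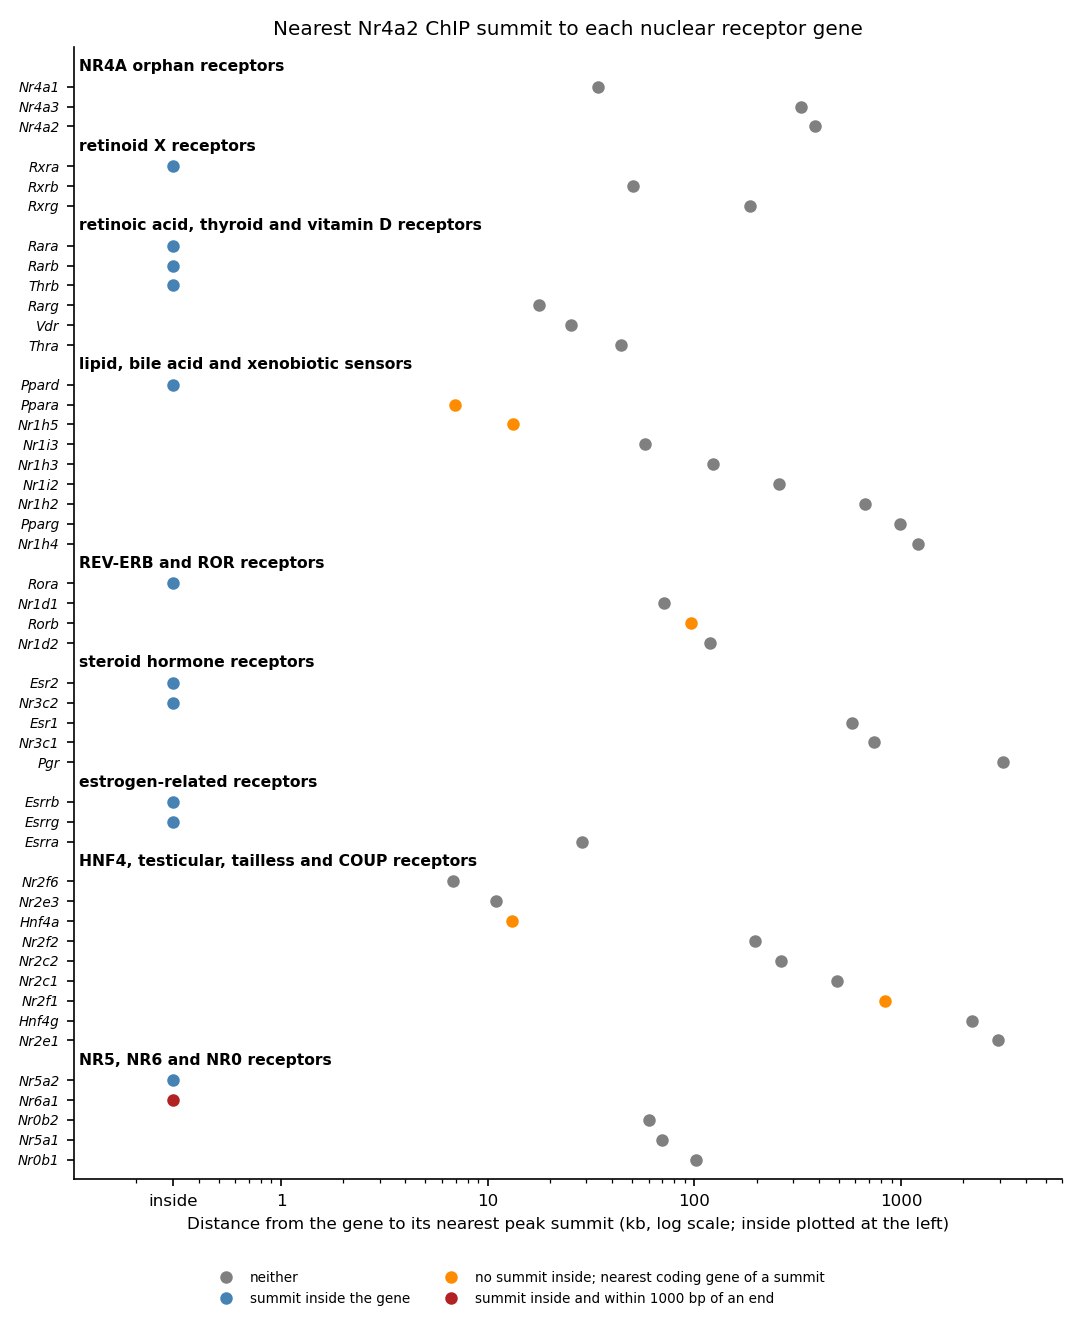
Distance in kb (log scale) from each of the 47 nuclear receptor genes to its nearest peak summit, 1 point per gene, grouped by the role of the receptor. The 12 genes that hold a summit are plotted at the left as inside, Nr6a1 in red because it also has one within 1000 bp of its end, and Pgr is farthest at 3115 kb.

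The retinoic acid, thyroid hormone and vitamin D receptor genes held 8 summits in 3 of 6 genes, against 11.6% of coding genes with a summit inside. Their summed length, 1.18 Mb, was the largest of any role. Thrb, which encodes thyroid hormone receptor beta, supplied 5 of the 8 in a gene of 381 kb. In order from its 5′ end these peaks had 8, 11, 9, 11 and 11 tags and folds of 3.23, 4.27, 3.59, 4.31 and 4.31, and the 3 of 11 tags had a q under 0.05. They lay 42.7, 106.1, 172.4, 212.4 and 360.1 kb from that end, so they were spread over the gene. To the first 3 of them an end of the coding gene LOC115488350 was nearer than an end of Thrb, at 40.3, 103.8 and 170.1 kb. Rarb, which encodes retinoic acid receptor beta, held 2 summits in 652 kb, with 9 and 8 tags and 3.59-fold and 3.23-fold enrichment, and both had a q above 0.05. The 8-tag peak was 4.87 kb before the Rarb start in the promoter table, which lies within the gene record. Rara, which encodes retinoic acid receptor alpha, held 1 summit at chr11:98958013-98958176 with 12 tags and 4.63-fold enrichment. Its −log10 q of 2.18 was the highest of any peak at a receptor gene. That summit was 6.76 kb before the closest Rara start, and an end of the coding gene Gm46294 was nearer to it, at 15.9 kb, than the end of Rara at 16.8 kb.

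The other genes of this group held no summit. Rarg, for retinoic acid receptor gamma, was 17.8 kb from its nearest peak, Vdr, for the vitamin D receptor, 25.2 kb, and Thra, for thyroid hormone receptor alpha, 44.0 kb. The peak near Rarg had 10 tags and 3.41-fold enrichment, that near Vdr 13 tags and 4.11-fold, and that near Thra 12 tags and 4.67-fold. Each of these was closer to another gene than to the receptor.

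Retinoic acid receptor, thyroid receptor and REV-ERB genes lie side by side in paralogous clusters. On chromosome 14, Rarb, Thrb and Nr1d2 span 1808 kb, with gaps of 576.9 and 164 kb between them, and 9 summits fell within that span. Of these, 7 were inside Rarb or Thrb, 1 was 43.9 kb from the end of Rarb and 1 was 45.3 kb beyond Thrb. Nr1d2, which encodes REV-ERB beta, had none inside. On chromosome 11, Thra, Nr1d1 and Rara span 234.2 kb, and Thra and Nr1d1 overlap by 1.08 kb. That span held 1 summit, the peak in Rara. Per length, the chromosome 14 span held 4.98 summits per Mb (Poisson 95% interval 2.28 to 9.45) and the chromosome 11 span 4.27 (0.108 to 23.8), so a difference in rate was not detectable.

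**Figure D2:**
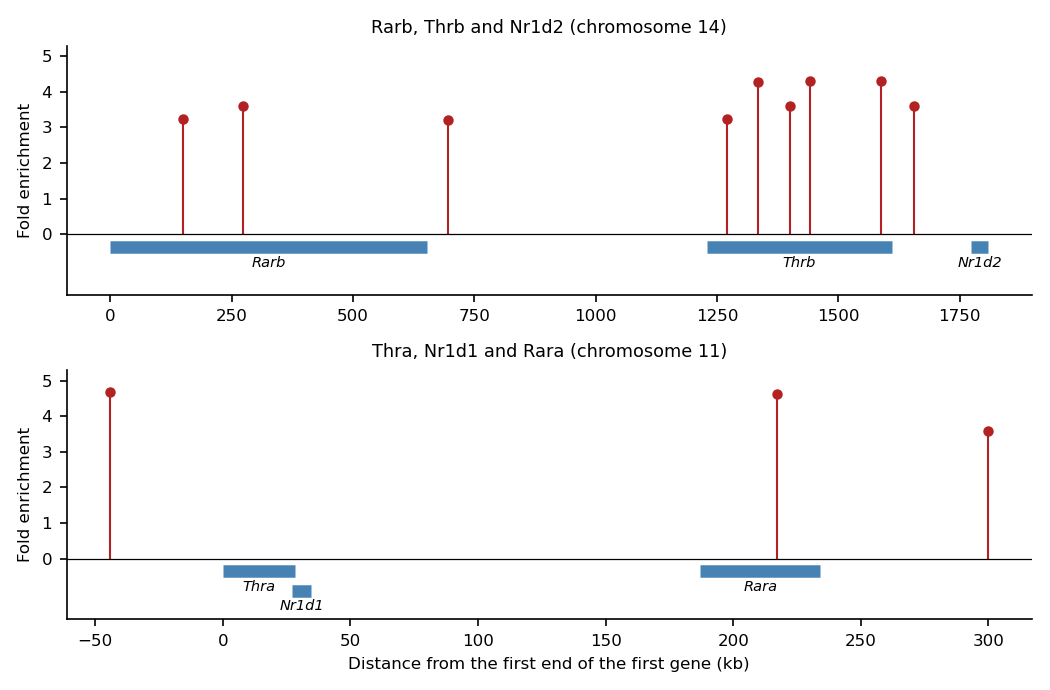
Peak summits (red, height is the authors' fold enrichment) and receptor genes (blue bars) in the chromosome 14 and chromosome 11 clusters, by distance in kb from the first end of the first gene, with 300 kb searched on either side. Thrb carries 5 of the 9 summits within the 1808 kb of the chromosome 14 span, and the 234.2 kb of the chromosome 11 span have 1, which is 4.98 and 4.27 summits per Mb.

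Of the 9 genes of lipid, bile acid and xenobiotic sensors, 1 held a summit, against 11.6% of coding genes. Their length and surroundings give 1.29 summits in all. Ppard, which encodes PPAR delta, a sensor of fatty acids, had a peak at chr17:28294492-28294666 with 11 tags, 4.31-fold enrichment and a −log10 q of 1.76. It was at 89.9% of the length of the gene from its 5′ end and 6.92 kb from the other end. Ppara, for PPAR alpha, had its nearest summit at 6.91 kb (9 tags, 3.10-fold), which was 0.913 kb from an end of Pkdrej. Ppara was the closest coding gene to a different summit at 15.5 kb, with 14 tags, 4.22-fold enrichment and a −log10 q of 2.18. Pparg, for PPAR gamma, known for its role in macrophage lipid handling, was 986 kb from any summit. Nr1h2 and Nr1h3 encode the oxysterol sensors LXR beta and LXR alpha, and their nearest summits were at 666 kb and 123 kb. Nr1h5, a farnesoid X receptor paralogue, was the closest gene to a peak at 13.3 kb with 11 tags and 3.48-fold enrichment. Nr1i3, Nr1i2 and Nr1h4, which encode the xenobiotic sensors CAR and PXR and the bile acid receptor FXR, were 57.9 kb, 255 kb and 1211 kb from the nearest summit.

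REV-ERB and ROR receptors are repressors and activators that compete for shared sites in the circadian clock. Rora, for ROR alpha, held 1 summit in 735 kb, with 7 tags, 2.85-fold enrichment and a −log10 q of 0.54, and no other peak at a receptor gene had a lower fold. Rorb, for ROR beta, is 181 kb long and lay among 6.64 summits per Mb, yet held 0. Its nearest summit was 96.7 kb away, and it was the closest coding gene to a peak at 366 kb. Nr1d1, for REV-ERB alpha, was 71.2 kb and Nr1d2 118.6 kb from the nearest summit.

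Of the steroid receptor genes, 2 of 5 held a summit, against 11.6% of coding genes. Their length and surroundings give 2.75 summits, and they held 2. Esr2, for estrogen receptor beta, had a peak at chr12:76173622-76173785, 3.55 kb after its start, with 12 tags and 3.77-fold enrichment over a background of 2.45 tags. Its −log10 q was 1.55. Nr3c2, for the mineralocorticoid receptor, held a peak of 9 tags and 3.56-fold enrichment, and 3 more summits outside coding genes had it as the closest coding gene, at 272.9 to 392 kb. Esr1, for estrogen receptor alpha, is longer than either at 394 kb but held no summit. Its nearest was at 579 kb, in a region with 0.527 summits per Mb, against 7.69 per Mb around Esr2. Nr3c1, for the glucocorticoid receptor, which mediates the response of microglia to corticosteroids, was 743 kb from the nearest summit, and Pgr, for the progesterone receptor, was 3115 kb away with no summit in the 5 Mb around it.

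The estrogen-related receptors are orphans that act on genes of energy metabolism, and 2 of their 3 genes held summits, against 11.6% of coding genes. These genes held 3 summits where their length and surroundings give 4.84. Esrrb had 1 peak at chr12:86434281-86434488 with 13 tags, the tallest at any receptor gene, over a background of 2.65 tags, which gave 3.83-fold enrichment. Esrrg held 2 in 606 kb, with 8 and 9 tags and folds of 3.20 and 3.59, both with a q above 0.05. Esrra, a compact gene of 11.1 kb, was 28.7 kb from the nearest summit.

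No summit fell inside any of the 9 genes of HNF4, testicular, tailless and COUP receptors, whose median length was 21.6 kb. Their length and surroundings give 0.661 summits in all, and 4.09% of coding genes under 25 kb held one. Nr2f6, a COUP-related repressor of T cell cytokine genes, came closest, 6.77 kb from a peak of 13 tags and 4.81-fold enrichment. That summit lay inside the gene Use1, 0.502 kb from its end. Nr2f6 had the densest neighbourhood of any receptor gene, at 10.6 summits per Mb. Nr2e3, a photoreceptor factor, was 10.98 kb from a summit inside the gene Thsd4, and Hnf4a, a liver and gut regulator, 13.2 kb from its nearest. Nr2f1 was 839.4 kb from its nearest summit, and was the closest coding gene to a different one at 1222 kb. Nr2f2, Nr2c2 and Nr2c1 were 196 kb, 262 kb and 488 kb from a summit, and Hnf4g and Nr2e1 were 2201 kb and 2956 kb away.

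The NR5, NR6 and NR0 genes held 4 summits in 2 of 5 genes, against 11.6% of coding genes with a summit inside. Their length and surroundings give 1.81 summits in all. Nr5a2, which encodes LRH-1, an orphan that regulates bile acid and steroid synthesis, held 3 in 118 kb, with 9, 7 and 9 tags and folds of 3.59, 2.85 and 3.56 from the 5′ end on. All had a q above 0.05. The first of them was 2.27 kb before a start of the gene and 4.55 kb inside its record. Another 5 summits outside had Nr5a2 as the closest coding gene, at 56.6 to 483.3 kb, so 8 in all, the most of any receptor gene. Nr6a1 held a peak at chr2:38905537-38905700, 20.8 kb after its start, with 11 tags and 4.31-fold enrichment, and its q was under 0.05. That summit also lay in or within 1000 bp of the antisense record Nr6a1os. Nr5a1, for steroidogenic factor 1, lies 8.83 kb from Nr6a1 but was 69.6 kb from a summit. Nr0b2 and Nr0b1, for the small receptors SHP and DAX-1 that lack a DNA-binding domain, were 60.1 kb and 101.4 kb away. After Nr6a1, at 112 bp, the receptor genes with a summit nearest to an end were Esr2 at 3.55 kb and Nr5a2 at 4.55 kb, both outside the limit of 1000 bp.

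**Figure D3:**
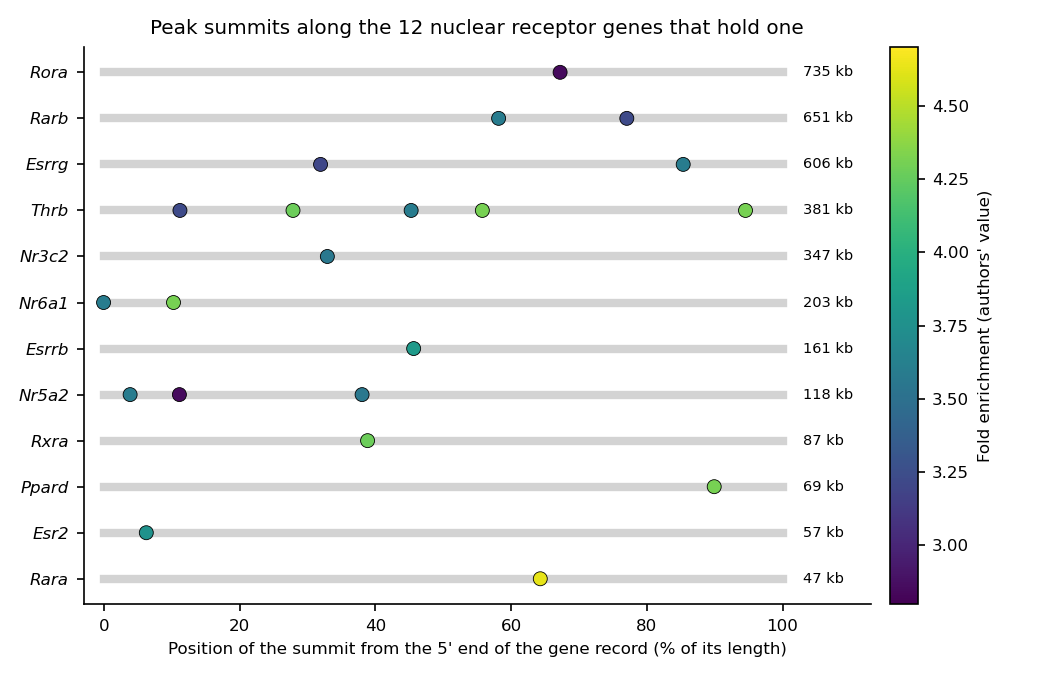
Position of each of the 21 peak summits along the 12 receptor genes that hold one, as percent of the gene record's length from its 5′ end, coloured by the authors' fold enrichment, with the gene length in kb at the right. Summits are spread along the genes, from just before the start of Nr6a1 to 94.5% of the length of Thrb.

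The 21 peaks at receptor genes were of ordinary height. They had 7 to 13 tags with a median of 9, against a median of 10 in all placed peaks, and folds of 2.85 to 4.63 with a median of 3.59, equal to the median of the list. A q of at most 0.05 was given to 9 of the 21 (42.9%), against 50.5% of placed peaks, and 7 (33.3%) had at least 4-fold enrichment, against 28.3%. Of the placed peaks, 288 reached 5-fold and 183 a q of at most 0.001, and 0 of the 21 did either. In 11 of the 21 the local background did not exceed the level set by the whole genome, 1.786 tags, by more than 0.002, so that 9 tags always gave 3.59-fold there. Of the 21 summits, 5 were within 5 kb of a transcription start in the promoter table. The share of all placed peaks was not computed, so this count cannot be called low or high. Exons, introns and untranslated regions were not separated.

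The share of receptor genes with a summit inside was 25.5% (12 of 47, exact 95% interval 13.9 to 40.3), against 11.6% of all coding genes. Receptor genes are long, with a median of 47.1 kb against 17.2 kb, and they lie in denser regions, with a median of 3.75 summits per Mb around them against 2.88. By length, 0 of 18 receptor genes under 25 kb held a summit, against 4.09% of coding genes of that length. From 25 to 100 kb it was 4 of 16 (25%) against 16.1%, from 100 to 300 kb 3 of 7 (42.9%) against 38.1%, and at 300 kb or more 5 of 6 (83.3%, interval 35.9 to 99.6) against 52.0%. The interval for the receptor genes included the value for all coding genes in each length class.

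**Figure D4:**
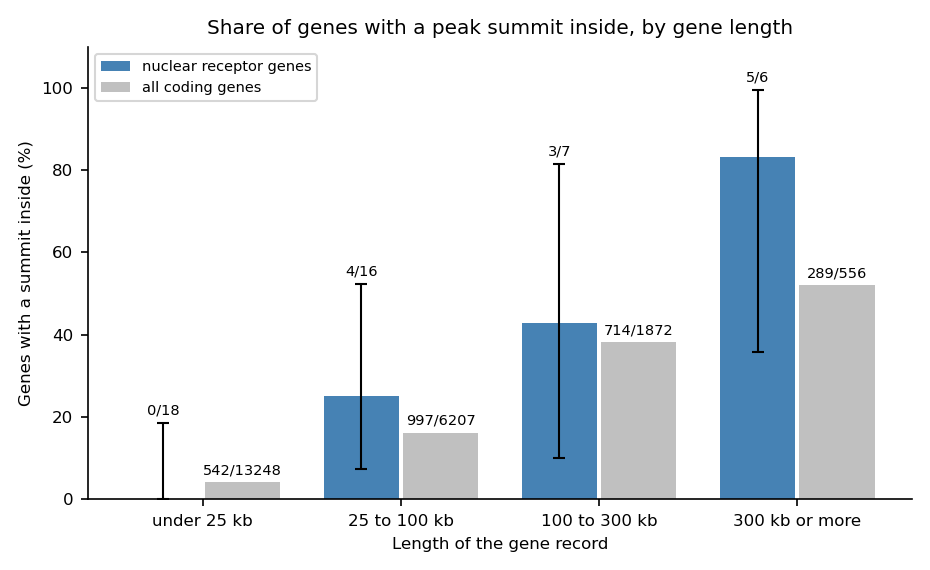
Percent of genes with a peak summit inside, for nuclear receptor genes (blue) and all coding genes (grey) in 4 classes of gene length; numbers above the bars are genes with a summit over genes in the class, and black lines are exact 95% binomial intervals. Both shares rise with length, from 0 of 18 and 4.09% under 25 kb to 5 of 6 and 52.0% at 300 kb or more.

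Receptor genes were also grouped by local density. Coding genes were divided into tertiles at 1.61 and 4.40 summits per Mb around them. None of the 13 receptor genes in the lowest tertile held a summit (interval 0 to 24.7%), against 3.89% of coding genes. In the middle tertile it was 5 of 14 (35.7%) against 12.3%, and in the highest 7 of 20 (35%) against 18.6%. In the middle tertile the interval for receptor genes, 12.8 to 64.9%, began just above the coding value, and 3 of the 5 genes there, Rora, Rarb and Thrb, are over 300 kb long. The sparse chromosomes 6, 7 and 10 carry 8 receptor genes, among them Pparg, Nr1h2 and Esr1, and 0 of these held a summit. On those chromosomes 1.78%, 3.89% and 1.60% of coding genes did. Chromosomes 18 and 14 were the next sparsest with receptor genes, at 1.12 and 1.42 peaks per Mb. On chromosome 18, 0 of 1 receptor genes held a summit, against 13.9% of coding genes. On chromosome 14, 2 of 3 did (Rarb and Thrb), against 6.82% of coding genes of any length. Both are over 300 kb long, and over all chromosomes 52.0% of coding genes of 300 kb or more held a summit.

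Length and local density were also combined. If each gene held summits at the density of the 5 Mb around it, the 47 genes would hold 20.04, and they held 20, a ratio of 0.998 (Poisson 95% interval 0.610 to 1.54). For all coding genes the same ratio was 1.07 (1.04 to 1.11). The receptor genes cover 5.33 Mb and held 3.75 summits per Mb (2.29 to 5.79), against 3.40 per Mb in coding genes. The interval of the first ratio includes the second, so a difference from other coding genes was not detectable with 20 summits.

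Of the 47 genes, 46 had a Poisson 95% interval that included their given count, and Thrb did not. The interval of a count of 0 reaches 3.69, above every given count of these genes (at most 3.45, for Esrrg). No gene could thus have shown too few summits, and most of these inclusions carry no information. Thrb held 5 summits (Poisson 95% interval 1.62 to 11.7) where its length and surroundings give 1.07, and without it the ratio over the other genes was 0.791. Of 330 coding genes of 300 to 500 kb, 15 (4.55%) held 5 or more. Nr5a2 held 3 (0.619 to 8.77) where 0.918 are given, and 26 of 968 coding genes of 100 to 150 kb (2.69%) held 3 or more. Both were singled out as the highest of 47, so these values describe them and do not test them. Among the counts under the given one, Esrrg held 2 (0.242 to 7.22) against 3.45 and Rora 1 (0.0253 to 5.57) against 2.24. Nr3c2 held 1 (0.0253 to 5.57) against 2.01 and Rorb 0 (up to 3.69) against 1.20. A shortfall could not have been detected in any of them. By role, the retinoic acid, thyroid and vitamin D group held 8 (3.45 to 15.8) against 4.06, and without Thrb 3 against 2.99. The NR5, NR6 and NR0 group held 4 (1.09 to 10.2) against 1.81, and without Nr5a2 1 against 0.888. The REV-ERB and ROR group held 1 (0.0253 to 5.57) against 3.58. Each of these role intervals included the given count. For the REV-ERB and ROR group the interval of a count of 0, up to 3.69, would have included it too.

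**Figure D5:**
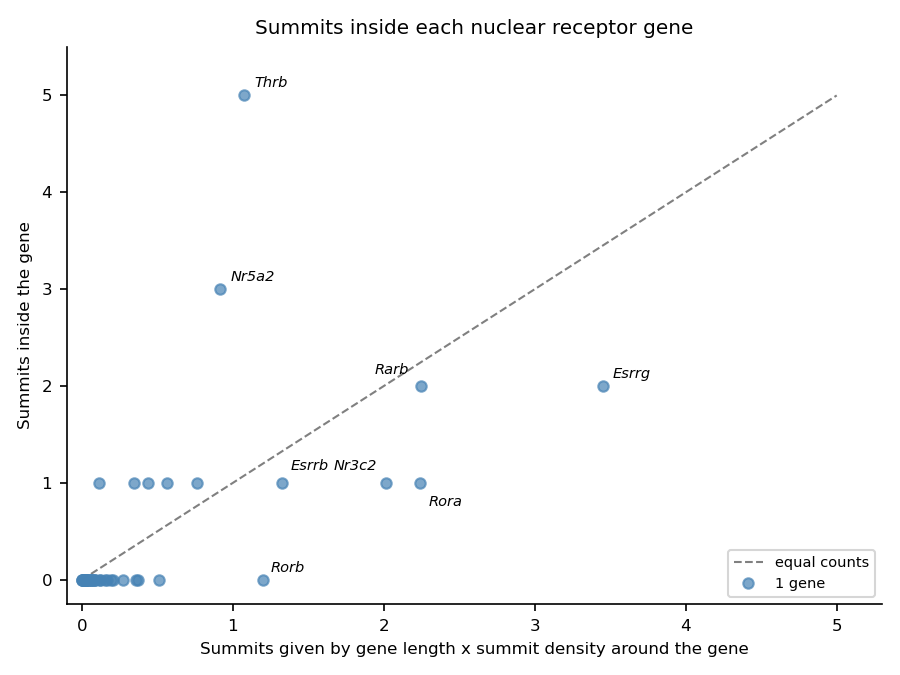
Peak summits inside each of the 47 nuclear receptor genes (vertical axis) against the number given by gene length times the density of summits in the surrounding 5 Mb (horizontal axis), 1 point per gene, with a dashed line at equal counts. Thrb (5 against 1.07) and Nr5a2 (3 against 0.918) lie above the line, and Esrrg, Rora, Nr3c2 and Rorb lie below it.

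By nearest coding gene, 16 of the 47 receptor genes (34.0%, interval 20.9 to 49.3) had at least 1 summit closer to one of their ends than to an end of any other coding gene, against 21.1% of coding genes. The interval includes the coding value, and this share was not split by length or density. They took 33 summits. Of the 12 genes with a summit inside, 11 were among the 16, and Rara was not. The other 5 were Ppara, Nr1h5, Rorb, Hnf4a and Nr2f1. At gene ends the count was 1 of 47 (2.13%, interval 0.0539 to 11.3), against 2.36% of coding genes. The median receptor gene was 57.9 kb from a summit, counting 0 inside a gene, and the median coding gene 99.0 kb. Within length classes the gap was not uniform. The medians were 64.9 against 114 kb under 25 kb and 81.3 against 84.5 kb from 25 to 100 kb. From 100 to 300 kb they were 96.7 against 44.3 kb, and at 300 kb or more both were 0.

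Genes that work with the receptors were scored in the same way from 3 lists. Coregulators, which receptors recruit to activate or repress genes, held a summit in 8 of 23 cases (34.8%), against 11.6% of all coding genes and 38.1% of those of 100 to 300 kb, the class in which the list's median length of 106 kb falls. They held 15 summits (Poisson 95% interval 8.40 to 24.7) where length and surroundings give 9.97, and without Ncoa2 and Ncoa6 7 where 8.77 are given. The highest fold was at Ncoa2, the coactivator SRC-2, which held 4 summits, the strongest with 14 tags and 5.20-fold enrichment at chr1:13187427-13187631. Ncoa6, another coactivator, also held 4, with up to 4.31-fold enrichment, and Tbl1x, a subunit of the corepressor complex, held 2, with up to 4.31-fold. Med1, the Mediator subunit that receptors contact, was the only gene of these lists with a summit within 1000 bp of an end. That is 1 of 23 coregulators and 0 in the other lists, against 2.36% of coding genes. The Med1 summit was 449 bp from the end, with 8 tags, 3.20-fold enrichment and a −log10 q of 0.76. Known target genes of receptors held a summit in 5 of 25 cases (20%), against 11.6% of all coding genes. In the class of the list's median length, 25 to 100 kb, 16.1% of coding genes did. The list held 6 summits (2.2 to 13.1) where 4.83 are given. The highest folds were in Plin2, a lipid droplet gene (17 tags, 6.46-fold), and Cpt1a, for fatty acid uptake into mitochondria (15 tags, 4.31-fold). Lpl, for lipoprotein lipase, was next by fold (9 tags, 3.58-fold), with a −log10 q of 1.08. Per1 and Cyp24a1 each had 12 tags and 3.50-fold enrichment, with a higher −log10 q of 1.39. Genes of ligand synthesis and transport held one in 1 of the 19 reported (5.26%), against 11.6% of all coding genes. In the class of the list's median length, under 25 kb, 4.09% of coding genes did. This list held 1 summit (0.0253 to 5.57) where 2.81 are given. The summit was in Cyp27a1, a sterol hydroxylase (7 tags, 2.73-fold).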

How the data were processed

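Per the submitters' processing notes, reads were aligned with Bowtie2 to mm10, and MACS2 2.2.6 and ChIPseeker were used. Per the file header, MACS 2.1.4 called peaks on 1 ChIP library (20365794 tags kept of 24935872) against 1 input (22520884 of 29057411) at a p-value cutoff of 0.001, with 1 tag kept per position and a fragment length of 164 bp. The deposited pileup is a coverage signal in tags over the summit. The deposited fold is that pileup divided by a local background, with a pseudocount of 1 on both. The deposited −log10 p-value and −log10 q-value were used as given, while the file header announces no q calculation. Summit positions and widths are in bp, per the file headers. All are the authors' values.

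Genes and 300-base promoter windows were taken from RefSeq records on GRCm38.p6. Each gene record was scored for summits inside it, within 1000 bp of either end, and closer to its end than to that of any other coding gene. Local density is summits per Mb in 5 Mb centred on the gene, without the gene, limited to the span between the first and last coding gene. That density times gene length gave the count compared with the summits inside. The scoring was tested on simulated summits. Calculations used Python 3.11.15, pandas 2.3.3, numpy 2.4.6 and scipy 1.17.1. Intervals are exact Clopper-Pearson or Poisson at 95%. Other settings changed the peak threshold, window, mark and density span.

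The receptor genes and the 3 other lists were chosen with earlier results of these data known, so no test over a list was made. In the list of ligand synthesis and transport, 1 gene is not reported here, and the list's counts leave it out. Named genes were every receptor gene with a summit inside or at an end, every one nearest to a summit, the NR4A and retinoid X genes, the 5 nearest and 5 farthest of the rest, and in the other lists those with a gene-end summit and the 3 of highest fold. The remaining receptor genes were added so that all are accounted for, and Per1 and Cyp24a1 were added for their q.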

Additional observations from a re-analysis of the deposited data

How the results depend on the processing

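With only peaks of a q of at most 0.05, the receptor genes with a summit inside fell from 12 to 7 (6.75% of coding genes), those at an end from 1 to 0 (1.18%), those nearest to a summit from 16 to 10 (12.8%), and the median distance became 101 kb (210 kb). At 4-fold or more these were 5, 0, 7 and 155 kb, against 4.02%, 0.599%, 7.99% and 394 kb for coding genes. At a q of at most 0.001 they were 0, 0, 0 and 3540 kb, against 0.379%, 0.0777%, 0.804% and 6630 kb. Fewer peaks lower these counts by construction. With a window of 10000 bp, 6 genes had a summit at an end (12.5% of coding genes). Apart from 3 counts by role or list that rest on Thrb, on Nr5a2 or on Ncoa2 and Ncoa6, given above without them (chosen after seeing the data), the other alternatives stayed within 1.5 times of the reported values. The ratio of summits inside to those given by length and density was 0.904 to 1.19 under density spans of 2 and 10 Mb and under the q and 4-fold limits, and 0.791 without Thrb, all chosen after seeing the data. No paired analysis was possible because there was 1 library of each kind. The depth, 7 to 13 tags at these peaks, limits what can be told about any single one.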

Other observations

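The core word AGGTCA was found in promoter windows of 11 receptor genes, on either strand. These were Nr5a2, Rxra, Rxrg, Nr6a1, Pparg, Nr1h4, Rara, Thrb, Nr1d2, Rarg and Nr0b1. Pparg had it in 2 windows, at positions -28 to -23 and -9 to -4 from the start. The Nr6a1 window that held it was the one of the downstream start, with 2 copies at -91 to -86 and -45 to -40 on the opposite strand, and not the one under the summit. In Nr5a2, for LRH-1, it lay at -64 to -59, and the closest summit to a start of that gene was 2.27 kb away. In Nr1d2, for REV-ERB beta, it lay at -77 to -72, and the nearest summit was 118.6 kb from the gene. These are matches in the reference, and no measurement of binding at them was made.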
